A study of Mus musculus with 6 samples.

Results

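The genes described here are 63 transcript clusters whose ontology text for biological process names DNA replication, DNA repair or DNA recombination, and names none of cell cycle, mitosis, cell division or chromosome segregation. A transcript cluster is the array's unit for a gene, though 3 of the 63 carried more than 1 gene symbol. They were found among 3956 clusters of the joined gene-level and splicing index tables, where 95 clusters carried one of the replication or repair terms and 32 of these were set aside for a cell-cycle term. The rule also left out symbols starting with Hist, of which there were 0 among the 95. The rule reads annotation and no measured value, but the tables themselves list clusters selected on measured change. Lateral ventricular choroid plexus, the tissue that secretes cerebrospinal fluid, was compared between embryonic day 15 (E15) and adult Swiss Webster mice. The E15 pools are labelled n = 30 and of mixed sex, and the adult pools n = 10 and female, all healthy and untreated, with 3 arrays for each age. Whether n counts the animals of 1 pool or of all pools of an age is not said, and the study's text gives other sizes. Sex and age cannot be told apart in this design. Whole plexus was taken, so the RNA came from every cell type in it, and fewer cells of a type cannot be told apart from less RNA per cell.

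DNA replication begins when the origin recognition complex loads the MCM helicase onto chromatin. The helicase is then switched on by the GINS complex and its partners, and primase, the polymerases and the RFC clamp loader build the new strands. Repair pathways overlap with this machinery. Mismatch repair corrects copying errors, homologous recombination and the Fanconi anaemia pathway restart broken or blocked forks, and base excision repair removes single damaged bases in resting cells as well. The epithelium of the adult choroid plexus divides rarely, whereas the plexus of the embryo is still growing.

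Each cluster has 1 merged normalized log2 value per age, centred near 0, and the difference given below subtracts the E15 value from the adult value. A negative difference is therefore higher at E15, and levels cannot be compared between genes. With no values for single arrays in the tables used here, no replicate error or test could be computed for any difference, and the number of arrays limits the precision. The replicate tests behind these tables are the authors' own: a test of the difference between ages selected the clusters of the gene-level table, and an analysis of variance of exon usage those of the splicing index table. All counts are descriptions of these merged values.

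Of the 63 members, 52 (82.5%) were higher at E15, against 54.1% of all joined clusters. A difference of 2-fold or more toward E15 was found in 25 members (39.7%), against 24.4% of all joined clusters, and toward the adult in 2 members (3.17%), against 22.9%. The median difference of the members was -0.83, a 1.78-fold excess at E15, and that of all joined clusters was -0.16. The middle of the distribution ran from -1.22 at the first quartile to -0.24 at the third. The members thus shared a direction more than a large size: the median size of their differences, 0.87, was below the 0.95 of all joined clusters. Just past the 2-fold line were Ssrp1, Mcm4, Exo1, Orc6l and Rad18, between -1.10 and -1.02. When each age was re-centred on its median over the joined clusters, 0.15 was added to every difference. Then 49 members (77.8%) stayed higher at E15 and 19 (30.2%) kept a difference of 2-fold or more toward E15. The background moved as well. Before re-centring, 51.2% of all joined clusters lay at or below -0.1 and 49% at or below -0.2, on either side of the shifted 0. At or below -1.1 lay 20.8% and at or below -1.2 18%, on either side of the shifted 2-fold line.

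The 2 source tables select clusters differently. 27 members were in the gene-level table, which lists clusters past the authors' test and a 2-fold change, so each of them had to differ. 25 of these 27 (92.6%) were higher at E15, against 51.2% of that whole table. The other 36 members were in the splicing index table alone, which was selected on exon usage. Of these 27 (75%) were higher at E15, against 56.5% of all clusters in the splicing index table alone, with a median difference of -0.41, against -0.13. None reached 2-fold (0 of the 36), but in the splicing index table alone only 1.95% of all clusters did so toward E15 and 1.16% toward the adult. Genes of these pathways in neither table were not analysed here.

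**Figure D1:**
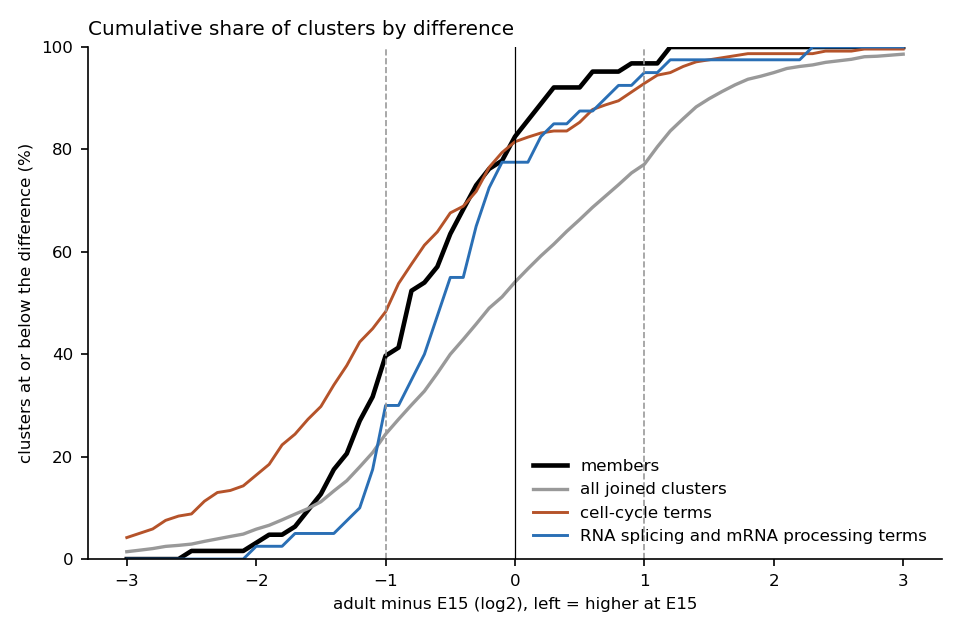
Cumulative share of clusters (vertical axis, percent) at or below each difference, adult minus E15 on the log2 scale (horizontal axis), for the 63 members, all 3956 joined clusters, 238 clusters with cell-cycle terms and 40 with RNA splicing or mRNA processing terms. Dashed lines mark 2-fold, and the member curve reaches 82.5% at 0 while that of all joined clusters reaches 54.1%.

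Dtl, which encodes the substrate receptor of a ubiquitin ligase that destroys the licensing factor Cdt1 at replicating DNA, had the largest difference. Its value was 1.37 at E15 and -1.19 in the adult, a 5.88-fold excess at E15. Tk1, the thymidine kinase that salvages thymidine for DNA synthesis, stood at 1.02 at E15 and -1.08 in the adult (4.28-fold). These were the only members past 4-fold (3.17%), a share below the 5.84% of all joined clusters at that size toward E15. Ruvbl2, an ATPase of chromatin remodelling complexes, was 0.98 at E15 and -0.93 in the adult (3.77-fold). Gen1, a nuclease that cuts Holliday junctions, was 0.88 at E15 and -0.85 in the adult (3.33-fold). Rad9b, a paralog of the Rad9 checkpoint clamp subunit, was 0.83 at E15 and -0.83 in the adult (3.16-fold). Neil3, a glycosylase that removes oxidised bases, stood at 0.97 at E15 and -0.63 in the adult (3.04-fold), on a cluster that the tables assign to Tnfrsf13c as well. With these, 6 members (9.52%) were 3-fold or more higher at E15. At a difference of -1.6 or lower, close to 3-fold, lay 9.52% of the members and 9.86% of all joined clusters. The members were therefore not past this size more often than other clusters.

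**Figure D2:**
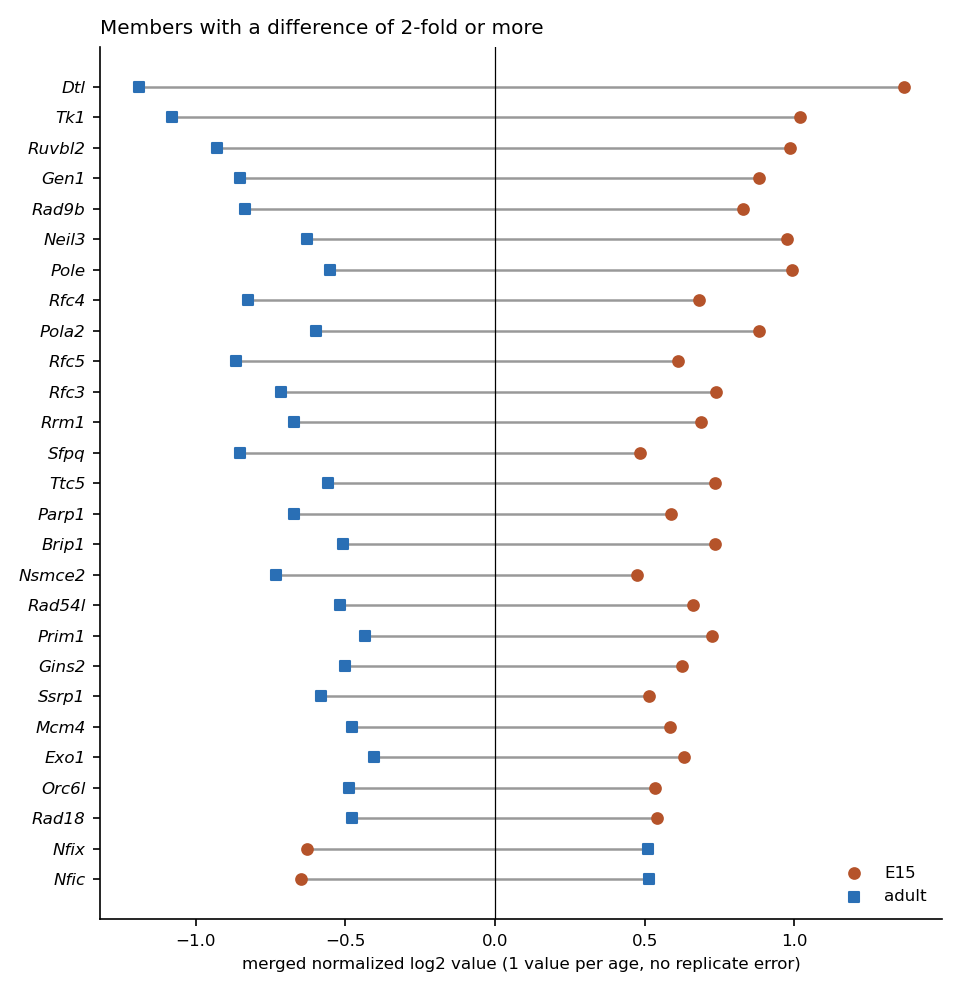
Merged normalized log2 value at E15 (circles) and in the adult (squares) of the 27 members with a difference of 2-fold or more, 1 gene per line, ordered by difference. The circle lies to the right of the square in 25 genes and to its left in Nfix and Nfic; there is 1 value per age, so no error bar is drawn.

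Promoters of replication genes are known for E2F elements, and promoters of mitotic genes for paired CCAAT and CHR elements, so the RefSeq promoter windows of the members (GRCm38.p6, 250 bases before to 50 after each annotated start) were searched for their letters. The E2F-type element was searched as TTTGGCG and in its variant forms as TTTCCCG, then TTTCGCG and lastly TTTGCCG. The NF-Y-type element was searched as CCAAT and the CHR-type element as TTTGAA, and all were read on both strands. Some E2F-type words overlap each other when read on opposite strands, and a gene was counted once. 54 of the 63 members had a window, and those without one included Rrm2b, Gins2, Pole, Prkdc, Nsmce2, Exo1, Mcm4 and Gins1. The E2F-type word was present in 8 of 20 members past 2-fold toward E15 (40%) and in 10 of 34 other members (29.4%). It was found in 11.5% of 2715 genes of the joined clusters with a window and in 7.65% of all 27025 genes of the promoter table. CCAAT was in 57.4% of the members with a window, against 42.9% of the genes of the joined clusters and 41.1% of all genes. TTTGAA was in 14.8%, against 16.9% and 20.2%. A match is a run of letters and not a measured site, and none of these arrays measured binding.

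The stretches below are the 150 bases before the start, written 5′ to 3′ on the gene's own strand, for the members past 2-fold toward E15 that hold an E2F-type word there. The word is in capitals. Orc3l, whose difference was -0.04, is shown beside them because it carries the same word as Gen1 and Rad9b with nearly equal values at the 2 ages. The stretches lie at chr1:191575545-191575694 (Dtl), chr12:11265808-11265957 (Gen1), chr5:122354206-122354355 (Rad9b), chr5:151651209-151651358 (Rfc3) and chr4:34614943-34615092 (Orc3l, RefSeq Orc3), all on the minus strand.
Dtl: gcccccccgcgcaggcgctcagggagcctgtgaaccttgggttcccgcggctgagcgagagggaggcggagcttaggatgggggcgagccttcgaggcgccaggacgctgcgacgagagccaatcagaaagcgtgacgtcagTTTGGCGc
Gen1: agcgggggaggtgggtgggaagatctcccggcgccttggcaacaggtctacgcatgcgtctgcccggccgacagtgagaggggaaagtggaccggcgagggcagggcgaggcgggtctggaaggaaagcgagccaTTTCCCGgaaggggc
Rad9b: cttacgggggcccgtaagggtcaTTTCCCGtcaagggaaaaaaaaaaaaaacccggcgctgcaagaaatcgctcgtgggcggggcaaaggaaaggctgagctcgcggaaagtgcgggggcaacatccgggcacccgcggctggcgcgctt
Rfc3: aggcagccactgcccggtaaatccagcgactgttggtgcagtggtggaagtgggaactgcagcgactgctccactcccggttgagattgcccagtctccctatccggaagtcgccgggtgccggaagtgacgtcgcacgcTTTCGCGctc
Orc3l: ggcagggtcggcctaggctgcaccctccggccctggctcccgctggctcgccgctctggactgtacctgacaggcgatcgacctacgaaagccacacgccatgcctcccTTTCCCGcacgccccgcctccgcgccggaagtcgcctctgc
The word began 8 bases before the start in Dtl, 10 in Rfc3, 15 in Gen1, 41 in Orc3l and 127 in Rad9b. Dtl and Rfc3 each held a second E2F-type word just after the start, and Orc3l held one 218 bases before the start. These second words are not printed. Tk1 had no E2F-type word of these letters in its window, nor had Ruvbl2 or Neil3.

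**Figure D3:**
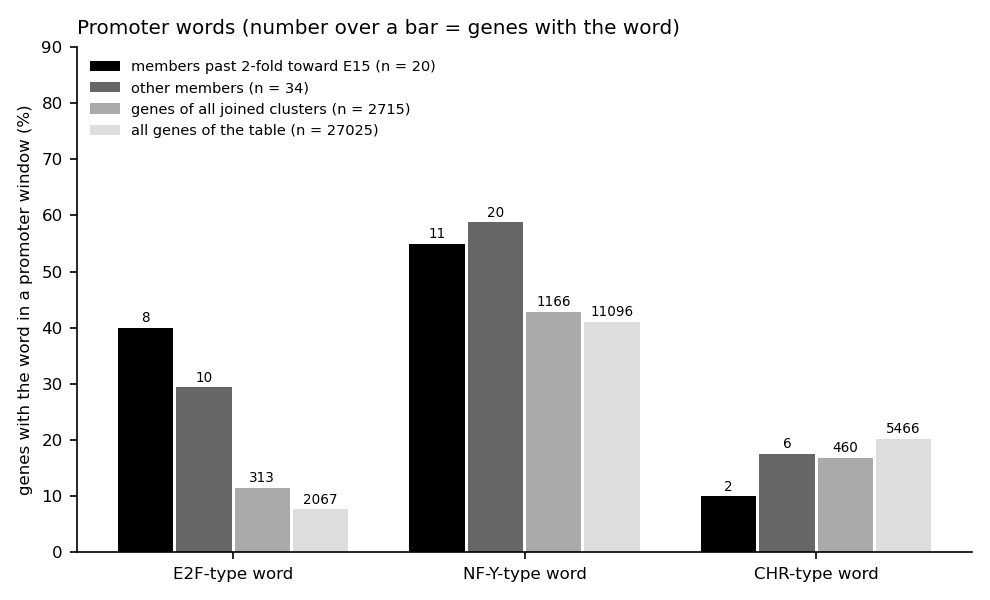
Share of genes (vertical axis, percent) with each of 3 promoter words in a RefSeq window, for members past 2-fold toward E15, other members, genes of all joined clusters and all genes of the promoter table. Bars start at 0 and the number over a bar counts the genes, with 8 of 20 and 10 of 34 members holding the E2F-type word.

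The replication machinery made up 17 of the members, of which 15 (88.2%) were higher at E15 and 10 (58.8%) by 2-fold or more, against 54.1% and 24.4% of all joined clusters, with a median difference of -1.06. All 3 RFC subunits with a row were within a narrow span. Rfc4 was 0.68 at E15 and -0.82 in the adult (2.84-fold), Rfc5 0.61 and -0.86 (2.78-fold), and Rfc3 0.74 and -0.72 (2.74-fold). These subunits belong to the complex that opens the PCNA clamp and places it at primer ends. Rfc1 and Rfc2 had no row.

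All 4 members among the polymerases and primase were higher at E15, against 54.1% of all joined clusters, with a median difference of -1.32. Pole, the catalytic subunit of the leading strand polymerase, stood at 0.99 at E15 and -0.55 in the adult (2.91-fold). Pola2, the accessory subunit of polymerase alpha, was 0.88 at E15 and -0.60 in the adult (2.79-fold). Prim1, the catalytic primase subunit, was 0.72 at E15 and -0.43 in the adult (2.23-fold). Pola1, which carries the catalytic site of the same complex, was only 0.14 at E15 and -0.37 in the adult (1.42-fold). The 3 measured subunits of the polymerase alpha-primase complex therefore did not share 1 size of difference. Pola1 was in the splicing index table alone.

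Origin proteins were mixed. Orc6l (RefSeq Orc6), the smallest subunit of the origin recognition complex, was 0.54 at E15 and -0.49 in the adult (2.03-fold). Its partners in the complex were near equal, with Orc3l (RefSeq Orc3) at 0.03 and -0.01 and Orc2l (RefSeq Orc2) at -0.04 and 0.13, at E15 and in the adult. The direction for Orc3l turned on re-centring, to a difference of 0.11. Mcm4, a subunit of the replicative helicase, was 0.58 at E15 and -0.48 in the adult (2.09-fold), and Mcm9, which works in recombination rather than in the replicative ring, was -0.14 at E15 and 0.09 in the adult. Among the 5 members of the licensing list, Mcm9 had the highest difference at 0.22 and Mcm4 the lowest at -1.06.

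The 3 members that act when origins fire were all higher at E15, as were 54.1% of all joined clusters, so that so short a list says little. Gins2, a subunit of the GINS complex that completes the active helicase, was 0.63 at E15 and -0.50 in the adult (2.18-fold). Gins1 of the same complex had a difference of -0.88 and so had Mcm10, which helps to activate the helicase and was the highest of the 3 members. Ssrp1, a subunit of the FACT histone chaperone and the 1 member of the list for chromatin assembly at forks, stood at 0.52 at E15 and -0.58 in the adult (2.14-fold). Dna2, a nuclease and helicase that trims flaps on the lagging strand, was 0.28 at E15 and -0.46 in the adult (1.67-fold).

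The rule set aside most of the replicative helicase, since only Mcm4 lacks a cell-cycle term. All 6 subunits of the MCM2-7 ring had a row, and all 6 were higher at E15 by 2-fold or more, with differences of -2.65 for Mcm3, -2.01 for Mcm5, -1.90 for Mcm6, -1.38 for Mcm2, -1.25 for Mcm7 and -1.06 for Mcm4. Mcm4 thus had the smallest difference of the ring. Mcm8, the partner of Mcm9, was at -0.38. Ruvbl1, the partner of Ruvbl2, was at -1.01 against -1.91 for Ruvbl2.

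**Figure D4:**
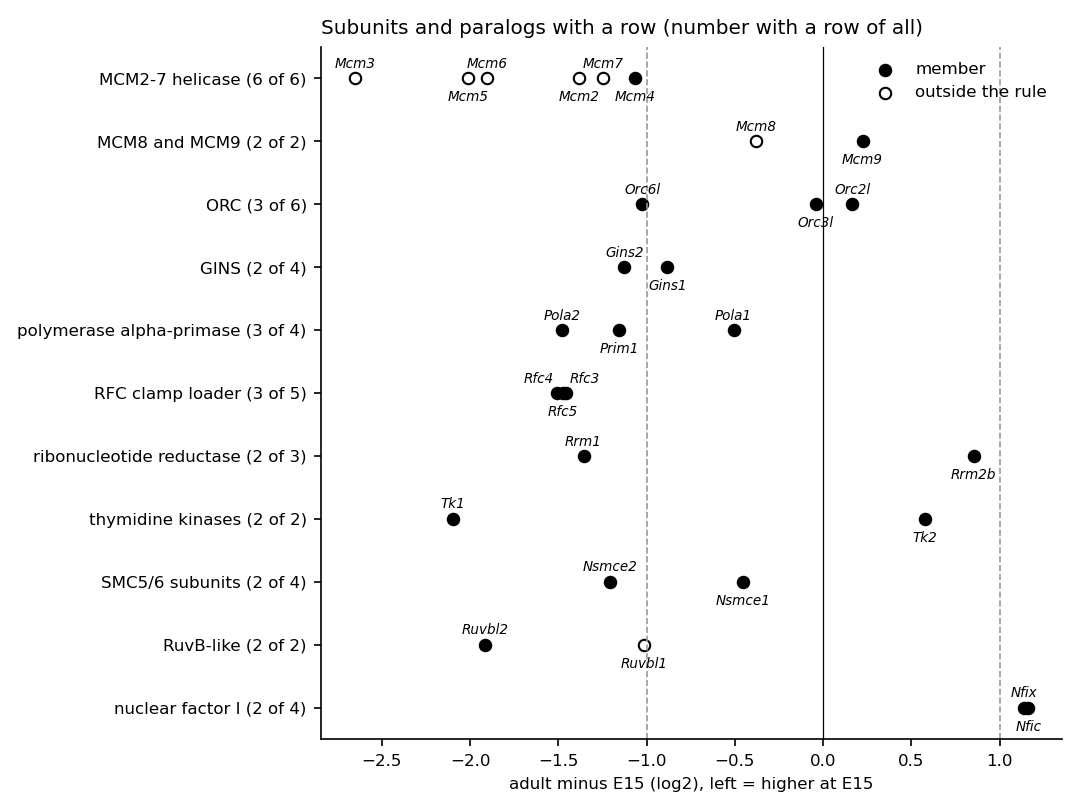
Difference, adult minus E15 on the log2 scale (horizontal axis), of each subunit or paralog with a row, by complex or pair. Filled circles are members, open circles fall outside the rule and dashed lines mark 2-fold; all 6 MCM2-7 subunits lie left of -1, while Tk1 and Tk2, and Rrm1 and Rrm2b, lie on opposite sides of 0.

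The 4 members that supply nucleotides split in pairs. Rrm1, the large subunit of ribonucleotide reductase, was 0.69 at E15 and -0.67 in the adult (2.56-fold). Rrm2b, the small subunit used outside S phase and induced by p53, was -0.39 at E15 and 0.46 in the adult (1.81-fold toward the adult). That cluster is also assigned to the ribosomal protein gene Rpl23a and its copies, so the value for Rrm2b is uncertain. Tk2, the thymidine kinase of mitochondria, was -0.21 at E15 and 0.36 in the adult (1.49-fold toward the adult), against the 4.28-fold excess at E15 of Tk1. The splicing index table counts the probe sets considered for the splicing index, which need not be those behind the gene-level value. For Tk1 it lists 2, the fewest of the 51 members in that table, where the median was 15. Tk2 was the 1 member annotated to the mitochondrion.

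Repair of double-strand breaks and crosslinks held 15 members, of which 12 (80%) were higher at E15, against 54.1% of all joined clusters, with a median difference of -0.82. By 2-fold or more there were 3 (20%), which was below the 24.4% of all joined clusters. Gen1, described above, had the lowest difference of the homologous recombination list. Rad54l, a motor protein that acts in strand invasion, was 0.66 at E15 and -0.52 in the adult (2.27-fold). Rad52, which plays a minor part in mammalian recombination, was -0.03 at E15 and 0.02 in the adult, the highest of the list. 7 of the 8 members of the homologous recombination list were higher at E15, against 54.1% of all joined clusters, with a list median of -0.85.

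Brip1, the helicase of the Fanconi anaemia pathway that binds Brca1, was 0.74 at E15 and -0.51 in the adult (2.37-fold). It was the lowest of 6 crosslink repair members and the only one past 2-fold, a share below the 24.4% of all joined clusters, while 5 of the 6 were higher at E15, against 54.1%. Dclre1b, a nuclease that also protects telomere ends, was the highest, at -0.02 at E15 and 0.15 in the adult (difference 0.17). Prkdc, the catalytic subunit of the DNA-dependent protein kinase that joins ends without a template, was -0.13 at E15 and 0.13 in the adult. It was the 1 member of the end joining list. End joining, unlike homologous recombination, does not need a sister chromatid.

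All 11 members counted as repairing single bases or strands were higher at E15, against 54.1% of all joined clusters. By 2-fold or more there were 4 of them (36.4%), against 24.4%. Their median difference was smaller, at -0.51. Parp1, the sensor of strand breaks that builds poly(ADP-ribose), was 0.59 at E15 and -0.67 in the adult (2.39-fold). Of the 4 members counted in the base excision list, Neil3 was the lowest and Xrcc1, the scaffold of single-strand break repair, the highest at -0.36. 2010301N04Rik (RefSeq Aplf), at -0.26, belongs to that list too. It was counted in no role list, since the lists were matched by the array's symbols. Exo1, a nuclease of mismatch repair and of end resection, was 0.63 at E15 and -0.40 in the adult (2.05-fold). Msh6, which recognises mismatches, was the highest of the mismatch repair list at 0.11 and -0.12 (1.17-fold). Rad18, the ubiquitin ligase that calls translesion polymerases to stalled forks, was 0.54 at E15 and -0.48 in the adult (2.03-fold), and Mgmt, which reverses alkylation of guanine directly, was 0.21 and -0.30 (1.42-fold). Gtf2h4, a subunit of the TFIIH complex that opens DNA in excision repair and at promoters, was at -0.51 and was the 1 member of the nucleotide excision list.

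In damage signalling, Nsmce2, the SUMO ligase of the SMC5/6 complex, was 0.47 at E15 and -0.73 in the adult (2.30-fold). Nsmce1, the ubiquitin ligase subunit of the same complex, was at -0.45. Atrx, a chromatin remodeller of repeats and telomeres, was 0.11 at E15 and 0.14 in the adult.

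**Figure D5:**
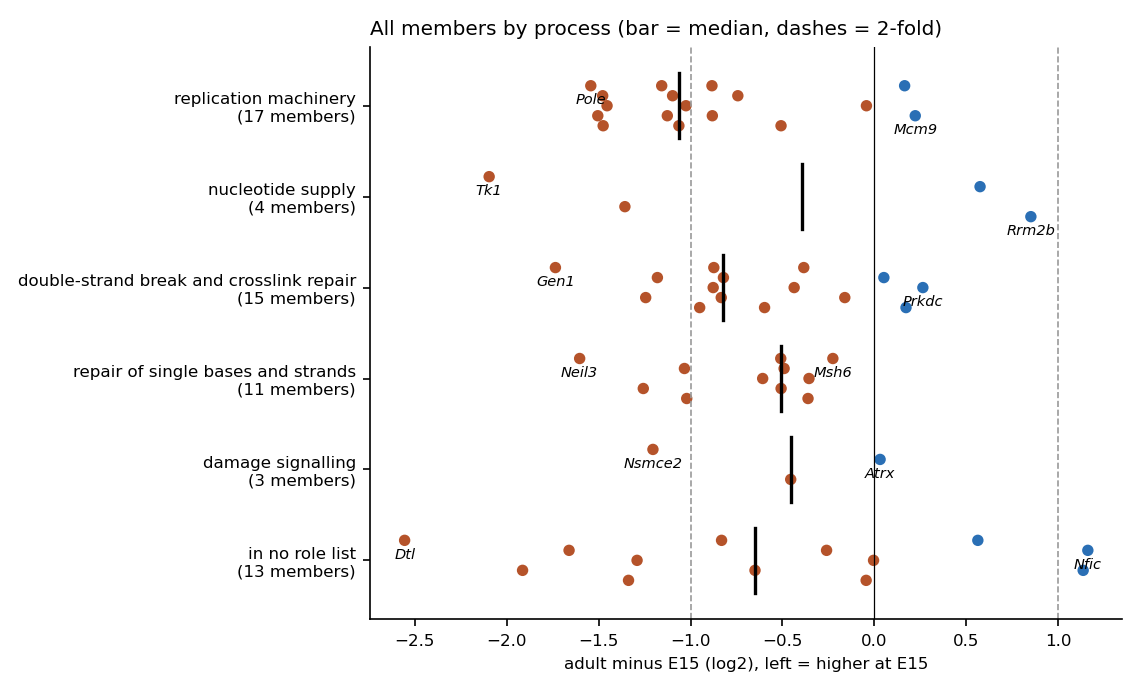
Difference, adult minus E15 on the log2 scale (horizontal axis), of all 63 members by process, 1 point per member, with black bars at the medians, dashed lines at 2-fold and the lowest and highest member of each process named. Medians run from -1.06 for the replication machinery to -0.39 for nucleotide supply, and all 11 members counted as repairing single bases or strands lie left of 0.

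By the array's symbols, a further 13 members stood in no role list. Of these, 10 (76.9%) were higher at E15 and 5 (38.5%) by 2-fold or more, against 54.1% and 24.4% of all joined clusters. Dtl, Ruvbl2 and Rad9b are given above. Sfpq, an RNA and DNA binding protein of nuclear paraspeckles, was 0.49 at E15 and -0.85 in the adult (2.53-fold). Ttc5, a cofactor of the p53 stress response, was 0.73 at E15 and -0.56 in the adult (2.45-fold). The 2 members past 2-fold toward the adult were both nuclear factor I genes, transcription factors first known for their part in adenovirus replication. Nfic was -0.65 at E15 and 0.51 in the adult (2.24-fold toward the adult), and Nfix was -0.63 and 0.51 (2.2-fold toward the adult). Nfia and Nfib had no row.

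By term, 21 of 27 members with DNA replication (77.8%) were higher at E15, 13 of them (48.1% of the class) by 2-fold or more, against 54.1% and 24.4% of all joined clusters, and both nuclear factor I genes were in this class. Of the 41 members with DNA repair, 35 (85.4%) were higher at E15 and 15 (36.6%) by 2-fold or more, with 0 past 2-fold toward the adult. Of the 9 with DNA recombination, 8 were higher at E15, but only 2 (22.2%) by 2-fold or more, a share below that of all joined clusters. Annotations that the rule did not read, but that often accompany replication and repair genes, were also shared. 52 members (82.5%) were annotated to the nucleus, against 22.5% of all joined clusters, and 21 (33.3%) to ATP binding, against 9.86%. Helicase activity was annotated in 8 members (12.7%), against 0.91% of all joined clusters. Of the 8, 7 were higher at E15 and 4 by 2-fold or more. All 36 clusters with helicase activity leaned the same way, with a median difference of -0.41 and 36.1% past 2-fold toward E15.

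The other clusters of the same role lists, which the rule left out, were mostly on the same side. Of 56 such clusters, 51 (91.1%) were higher at E15 and 25 (44.6%) by 2-fold or more, against 54.1% and 24.4% of all joined clusters. By 2-fold or more toward the adult there were 2 (3.57%), against 22.9%. Those 2 were Parp3, a poly(ADP-ribose) polymerase of break repair (difference 1.73), and Cul4b, a scaffold of the same ubiquitin ligase family as Dtl (1.28). The 32 clusters with a replication or repair term and a cell-cycle term were all higher at E15, against 54.1% of all joined clusters. Their median difference was -1.0, and 16 of them (50%) were past 2-fold, against 24.4%. Among the clusters with a cell-cycle term in these lists, the largest differences were -4.65 for Top2a, which untangles replicated DNA, -2.77 for Uhrf1, -2.74 for H2afx, -2.66 for Dbf4 and -2.65 for Mcm3. The next were Mcm5, Cdkn1a (-1.95), Mcm6, Chaf1b (-1.90) and Hells (-1.81). The 206 clusters with a cell-cycle term and no replication or repair term had 78.6% higher at E15 and 48.1% past 2-fold toward E15, against 82.5% and 39.7% of the members. The direction was shared about as widely, and differences past 3 on the log2 scale were found among the cell-cycle clusters and not among the members. These differences between groups of genes were not tested. The 40 clusters with RNA splicing or mRNA processing terms had 77.5% higher at E15 and a median difference of -0.52.

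Markers of other cells differed between the ages as well, in both directions, and their part in the members' differences was not tested. Only markers whose clusters passed the authors' selections had a row. These were 18 of 20 symbols for dividing cells, 13 of 20 erythroid, 14 of 18 mesenchymal, 6 of 12 endothelial and 11 of 20 neural. For macrophages and MHC class II they were 10 of 16, for lymphocytes 1 of 10 and for choroid plexus epithelium 12 of 20. All 18 clusters of the dividing cell list were higher at E15, with differences between -4.10 and -1.48, and the members' largest difference, -2.56, was smaller than the median of that list, -3.05. The 13 erythroid, 14 mesenchymal and 6 endothelial clusters with a row were also all higher at E15. For neural progenitors and neurons 8 of 11 were higher at E15, and the other 3, Camk2a (2.66), Syt1 (1.97) and Snap25 (1.52), were past 2-fold toward the adult. For macrophages and MHC class II 6 of 10 were higher at E15, and the other 4, Cd74 (3.16), H2-Aa (2.53), H2-Ab1 (1.56) and H2-Eb1 (1.5), were past 2-fold toward the adult. The 1 lymphocyte cluster was at -0.54. Listed epithelium markers without a row included Ttr, Otx2, Aqp1 and Folr1, so the direction of that list as a whole cannot be read. The 13 clusters of choroid plexus epithelium markers with a row had a median difference of 2.10. Of these, 11 were higher in the adult, 2 of them for the same gene, Prlr. The other 2, Lmx1a (-1.14) and Kcne2 (-1.13), were past 2-fold toward E15. Since values are centred for each cluster, it cannot be read from them whether any marker was absent at an age.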

How the data were processed

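RNA from 6 pools of plexus from the lateral ventricles, 3 per age, was amplified and hybridised to Affymetrix mouse exon arrays. The authors deposited 1 merged log2 value per age for each transcript cluster, made with Affymetrix Power Tools by RMA with a per-chip median (versions and genome build not given in the sources used here). The gene-level table holds clusters past the authors' unpaired test, with a limit of 0.05 on the corrected p, that also changed by 2-fold or more, after a filter on low expression. The splicing index table holds clusters that passed a detection filter and an analysis of variance on exon values, with the same limit on the corrected p, and then a splicing index of at least 0.5, and the number of probe sets considered for it. Columns of the authors' fold change, direction and splicing index, and a table of clusters common to both, were not used. The deposited tables hold 0 columns for single arrays, so no depth, error or test of single arrays could be computed.

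Both tables were joined by cluster with Python 3.11.15 and pandas 2.3.3, and values of clusters in both differed by 0. The member rule was applied to the ontology text, and the difference was adult minus E15. The array's symbols were matched to 15 role lists and 8 marker lists as whole entries. For names, 62 members were matched to RefSeq by accession and the other by symbol, with 6 names updated. The updated names were not used for the lists. A few items are not reported here by name. Members past 2-fold were named with values, and below it the highest and lowest of each role list, with others of a complex or pair added after their values were seen. The 10 largest differences were named among role list genes with a cell-cycle term. The members and lists were chosen with earlier results of these data known. The rule and the promoter search were tested on simulated data, and alternatives changed the fold threshold, the centring, the tables and the terms.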

Additional observations from a re-analysis of the deposited data

How the results depend on the processing

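The direction of the median difference held under every alternative that was run: re-centring, other cluster choices, either table alone, each term alone, annotation not inferred electronically, and cell-cycle terms kept in. Higher at E15, instead of 52 of 63, were 25 of 27 with the gene-level table alone, 16 of 18 without electronic annotation, 21 of 27 for DNA replication alone, 8 of 9 for DNA recombination alone and 84 of 95 with cell-cycle terms kept in. Past 2-fold toward E15, instead of 25 of 63 (39.7%), were 15 of 51 in the splicing index table (29.4%), 5 of 18 without electronic annotation (27.8%), 13 of 27 for DNA replication (48.1%), 15 of 41 for DNA repair (36.6%), 2 of 9 for DNA recombination (22.2%) and 41 of 95 with cell-cycle terms kept in (43.2%). The share was 24.4% over all joined clusters and 20.5% over the splicing index table, so without electronic annotation it was near the background and for DNA recombination below it. A 3-fold threshold left 6 of 63 (9.52%), and 9.86% of all joined clusters lay at or below -1.6, close to 3-fold. Past 2-fold toward the adult, instead of 2, were 0 at 3-fold, 0 in the splicing index table, 0 without electronic annotation, 0 for DNA repair and 0 for DNA recombination. The median difference was -1.29 in the gene-level table alone, which holds only changes of 2-fold or more.

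Re-centring turned 3 members, all near 0: 2310003H01Rik (RefSeq Faap100) to 0.11, Orc3l to 0.11 and Rbms1 to 0.15. Of the 27 members past 2-fold, 21 stayed past it, and Gins2, Ssrp1, Mcm4, Exo1, Orc6l and Rad18 did not. Rrm2b moved from 0.85 to 1.0, which brought the count past 2-fold toward the adult from 2 to 3. No paired analysis was possible because the tables hold 1 merged value per age and no column for a single array. Leaving out each replicate in turn was not run for the same reason. Signal over background cannot be read from centred values.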
